A study of Mus musculus with 8 samples.

Results

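Integrins are the receptors by which cells hold on to the matrix and to each other, and laminins are among the matrix proteins they hold. The genes described here were found by a rule on names that uses no measured value: every row of the 2 count tables whose symbol was Itga or Itgb followed by a number or by the letters of a single chain (as in Itgam, Itgav or Itgax), or was Lama, Lamb or Lamc followed by a number. The rule found 40 of 27775 rows, which carry 39 symbols: 18 integrin alpha chains, 9 integrin beta chains, 11 laminin chains (5 alpha, 3 beta and 3 gamma) and Itgbl1, an integrin-beta-like secreted protein that is no receptor chain. Itgam has 2 rows. The values below are those of the first, and the second held 9 UMIs (unique molecular identifiers, each standing for 1 captured RNA molecule) in the medium-size tumor and 3 in the large-size tumor.

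The cells came from 2 pancreatic ductal adenocarcinomas of untreated KPC mice, labelled medium size and large size, dissociated and read at the 3′ end of each RNA by droplet single-cell sequencing. Both tumors share the KPC genotype, which includes LSL-Trp53R172H beside a normal copy, and Pdx-1-Cre. The stop (LSL) before a mutant allele is cut out by Cre where the Pdx-1 promoter is active, which is in the epithelium of the pancreas and nearby gut and not in the host's stromal, vascular or immune cells. The age of the mice is not given in the sources used here. Each size is 1 tumor whose 4 technical replicates are summed in 1 table, so no biological replicate lies behind any value: no p-value is given, every interval is an exact 95% interval for counting error only, and a difference between the tumors cannot be told apart from one between mice or preparations.

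As background, an integrin is a pair of 1 alpha and 1 beta chain, and the pairing sets the ligand. Itgb4 pairs with Itga6 into the laminin receptor of hemidesmosomes, Itgb1 pairs with many alpha chains that bind laminins, collagens or fibronectin, Itgav and Itga5 serve receptors for the RGD motif, and Itgb2 joins Itgal, Itgam, Itgax or Itgad on leukocytes. A laminin is a trimer of an alpha, a beta and a gamma chain. Lama3 and Lamb3 are chains of laminin-332 of the epithelial basement membrane, while Lamb1 and Lamc1 enter most other laminins, with Lama4 and Lama5 typical of vessels and Lama5 also of epithelia.

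The medium-size tumor held 2812 cells with 20301669 UMIs and the large-size tumor 1533 cells with 2239012 UMIs (median per cell 5456.5 and 1037; 5 cell barcodes were shared). Levels are UMIs per 1000000 UMIs of a cell group (CPM). Cells were clustered without the 40 rows, and clusters were named from marker lists: in the medium-size tumor 2329 epithelial-like, 238 monocyte/macrophage-like, 74 mesothelial-like, 67 stromal-like and 38 endothelial-like cells, with cluster 12 (66 cells, led by Laptm5 and Rac2) left unnamed since it carried epithelial and myeloid markers side by side. In the large-size tumor 1220 epithelial-like, 252 monocyte/macrophage-like, 50 stromal-like and 11 endothelial-like cells were found. Markers of other classes were read in each group: 11 epithelial markers stood in monocyte/macrophage-like cells at a median of 6.47% of their epithelial-like level (4.97 to 10.7%) in the medium-size tumor and 4.98% in the large-size tumor, and 11 macrophage markers stood in epithelial-like cells at 0.857% and 0.907%. A gene is called where it passed 50 UMIs in the tumor and differed by at least 2-fold on the CPM + 5 scale. Of the 40 rows, 23 passed that filter in the medium-size tumor and 11 in the large-size tumor. Itga8, Itgad and Itgb2l had no UMI in the medium-size tumor, and 8 rows had none in the large-size tumor.

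On the mouse genome (GRCm38, GENCODE M21 gene bounds), several of the genes lie side by side. Itgam (chromosome 7, 128062640 to 128118491), Itgax (128129547 to 128150657) and Itgad (128154376 to 128223816) follow each other on the plus strand, and Itga2 (chromosome 13, 114833081 to 114932100) lies next to Itga1 (114953096 to 115101964) on the minus strand. Among these neighbours Itgam and Itgax were both called higher in monocyte/macrophage-like cells, whereas Itga2 was called higher in epithelial-like and Itga1 in stromal-like cells, as given below; the call of Itga1 was lost when each cell was classed by its own markers.

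RefSeq promoter windows of GRCm38.p6, cut to the 250 bases before the start, were read for 25 of the 39 symbols (28 windows), with Itgb2, Itgb4, Itga6, Lamc1 and Lama4 among those not matched. Of the leukocyte and laminin-332 genes, whose levels over the cell classes are given below, the windows that hold a match are shown, with the letters searched for in capitals. Both strands were searched for GAGGAAG, the core bound by PU.1, a transcription factor of myeloid cells, and for TGANTCA, bound by AP-1. GAGGAAG stood in 8 of the 28 windows (those of Itgam, Itgav, Itga11, Itga2b, Itgb2l and Lama2 and 1 of 2 each of Lamb3 and Itgb6) and in 10.6% of all 32851 windows, and TGANTCA in 1 of the 28 and in 6.75% of all; the letters do not overlap each other, and a match is a description of sequence and not of binding. Itgam (chr7:128062390-128062639, plus strand) holds GAGGAAG 84 bases before its start, Itgax (chr7:128129300-128129549, plus strand) holds TGAGTCA 56 bases before its start, and the first of 2 windows of Lamb3 (chr1:193301744-193301993, plus strand) holds GAGGAAG 237 bases before its start:
Itgam: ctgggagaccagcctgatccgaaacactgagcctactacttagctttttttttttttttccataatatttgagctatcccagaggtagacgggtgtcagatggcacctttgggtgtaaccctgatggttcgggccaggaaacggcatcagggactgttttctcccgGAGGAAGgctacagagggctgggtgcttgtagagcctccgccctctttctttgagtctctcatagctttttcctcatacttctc
Itgax: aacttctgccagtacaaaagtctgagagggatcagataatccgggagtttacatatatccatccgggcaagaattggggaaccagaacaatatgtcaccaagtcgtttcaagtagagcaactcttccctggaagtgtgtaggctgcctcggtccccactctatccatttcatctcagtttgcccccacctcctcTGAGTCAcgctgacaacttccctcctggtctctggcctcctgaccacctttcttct
Lamb3: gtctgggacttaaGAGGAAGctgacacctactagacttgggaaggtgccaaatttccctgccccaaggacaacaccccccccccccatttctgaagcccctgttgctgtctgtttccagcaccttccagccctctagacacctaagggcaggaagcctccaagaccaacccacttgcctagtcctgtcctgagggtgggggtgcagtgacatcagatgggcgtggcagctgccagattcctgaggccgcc

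In the medium-size tumor, the laminin-332 chains Lama3 and Lamb3 and the receptor chain Itgb4 had their highest level in epithelial-like cells, while the receptor chains Itga3 and Itga6 stood somewhat higher in endothelial-like cells, with overlapping intervals. Against all other cells 8 of the 23 rows that passed were called higher (among them Lamb3, Lama3, Lama5, Itgb4, Itgb6, Itga2 and Itga3), where 5.94% of all 11205 genes that passed were, and 7 were called lower (Itga4, Itga5, Itgam, Itgax, Itgb2, Itgb3 and Lama4), where 9.15% were. The median difference of the 23 rows was -0.07 on the log2 scale, beside 0.15 for all genes.

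Lamb3, the beta chain of laminin-332, stood at 56.9 CPM (53.5 to 60.5) in epithelial-like cells (intervals in parentheses), 21.1 CPM (8.48 to 43.4) in stromal-like, 15.3 CPM (5.62 to 33.4) in mesothelial-like, 9.78 CPM (4.47 to 18.6) in monocyte/macrophage-like and 8.49 CPM (1.03 to 30.7) in endothelial-like cells. The epithelial-like level was the highest and the intervals of the 4 other groups overlapped. Against all other cells it was 3.14-fold (2.29 to 4.43) higher in epithelial-like cells. Lama3, the alpha chain of the same trimer, was 4.39-fold (2.64 to 7.89) higher, at 29.8 CPM (27.3 to 32.4). Both chains thus shared their highest class. In monocyte/macrophage-like cells they stood at 17.2% and 10.95% of the epithelial-like level, on 9 and 3 UMIs, beside the 4.97 to 10.7% of the epithelial markers there.

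Lama5, the laminin alpha chain of epithelia and vessels, was 2.26-fold (1.74 to 3.00) higher in epithelial-like cells than in the rest, but its level of 59.5 CPM (56.0 to 63.1) there lay within the interval of endothelial-like cells, 59.4 CPM (32.5 to 99.7). Stromal-like cells followed with 45.2 CPM (25.3 to 74.5), an interval that overlaps both. Mesothelial-like cells stood at 25.5 CPM (12.2 to 47.0) and monocyte/macrophage-like cells at 3.26 CPM (0.672 to 9.53). The 11 epithelial markers summed to 4245 CPM in the endothelial-like cluster, 2876 CPM in the mesothelial-like, 1277 CPM in the stromal-like and 672 CPM in the larger monocyte/macrophage-like cluster, against 5970 to 16813 CPM in the epithelial-like clusters, and Epcam stood at 688 CPM in endothelial-like against 1090 CPM in epithelial-like cells. Their part in the Lama5 of these classes was not tested.

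The other laminin chains were highest outside the epithelium. Lama4, the alpha chain of vessel basement membranes, stood at 97.6 CPM (61.9 to 146) in endothelial-like cells, 42.6-fold (24.6 to 71.7) above all other cells, with 21.1 CPM (8.48 to 43.4) in stromal-like and 1.77 CPM (1.21 to 2.50) in epithelial-like cells. Lamb1 stood at 153 CPM (107 to 212) in endothelial-like and 114 CPM (81.0 to 157) in stromal-like cells, which overlap, against 28.7 CPM (26.3 to 31.3) in epithelial-like cells. Lamc1, the common gamma chain, had the same order, with 93.4 CPM (58.5 to 141) in endothelial-like, 84.3 CPM (56.0 to 122) in stromal-like and 25.3 CPM (23.0 to 27.7) in epithelial-like cells. Lamb2, the beta chain of muscle and kidney laminins, differed from Lamb1: it was highest in stromal-like (63.3 CPM, 39.2 to 96.7) and mesothelial-like cells (51.1 CPM, 31.2 to 78.9) and lower in endothelial-like cells (12.7 CPM, 2.63 to 37.2). Lamc3 had 15 UMIs in the whole tumor, 7 of them in mesothelial-like cells, and Lama2 and Lama1 had 8 and 5, too few to compare. In epithelial-like cells chains of 2 kinds of laminin were therefore present together, those of laminin-332 (1030 UMIs of Lamb3 and 539 of Lama3) and those of the common laminins (1076 of Lama5, 519 of Lamb1 and 458 of Lamc1). UMI counts from the 3′ end do not rank chains of different genes by RNA amount.

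**Figure D1:**
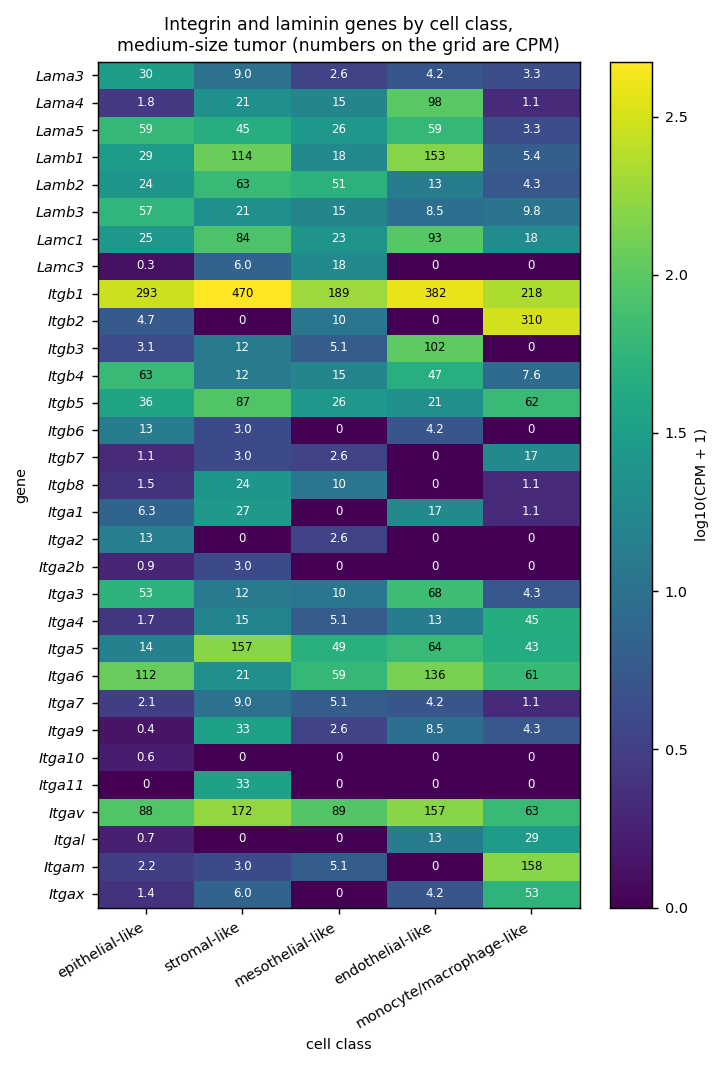
Integrin and laminin chains, each with at least 10 UMIs in the medium-size tumor (rows) in 5 cell classes (columns); colour is log10(CPM + 1) and the number in each field is CPM. Lama3, Lamb3, Itgb4, Itgb6 and Itga2 are highest in epithelial-like cells, Lama4, Lamb1, Lamc1 and Itgb3 in endothelial-like cells, and Itgb2, Itgam, Itgax and Itga4 in monocyte/macrophage-like cells.

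Among the beta chains, Itgb4, the hemidesmosome chain, stood at 63.4 CPM (59.8 to 67.2) in epithelial-like cells and 7.61 CPM (3.06 to 15.7) in monocyte/macrophage-like cells, 3.50-fold (2.55 to 4.93) above all other cells together. Endothelial-like cells also held 46.7 CPM (23.3 to 83.5), an interval that reaches the epithelial-like level. The part of the epithelial markers' 4245 CPM there in its Itgb4, Itga3 and Itga6 was likewise not tested. Itgb6, which pairs with Itgav into a receptor for fibronectin and latent TGF-beta on epithelia, was 4.62-fold (2.09 to 12.7) higher in epithelial-like cells, at 12.5 CPM (10.97 to 14.3), and had no UMI in mesothelial-like or monocyte/macrophage-like cells. Both are beta chains with few partners, and both had their highest level in the epithelium.

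Itgb1, the beta chain shared by most matrix receptors, had the most UMIs of all 40 rows (5928) and was read in every class. It stood at 469.9 CPM (399 to 549.7) in stromal-like, 382 CPM (307 to 469.6) in endothelial-like, 293 CPM (285 to 301) in epithelial-like, 218 CPM (189 to 251) in monocyte/macrophage-like and 189 CPM (148 to 237) in mesothelial-like cells. It was called in no class. Itgb5, an Itgav partner for vitronectin, was 2.39-fold (1.59 to 3.46) higher in stromal-like cells, at 87.4 CPM (58.5 to 125), with 62.0 CPM (46.9 to 80.3) in monocyte/macrophage-like cells. Itgb3, the partner of Itgav on activated endothelium and of Itga2b on platelets, was highest in endothelial-like cells, with 102 CPM (65.3 to 152) in endothelial-like and 3.10 CPM (2.34 to 4.02) in epithelial-like cells, a 32.4-fold (19.4 to 52.7) difference against all other cells. Itga2b, its platelet partner, had 18 UMIs in the whole tumor and none in endothelial-like cells. Itgb8, an Itgav partner for latent TGF-beta, missed the filter with 40 UMIs, at 24.1 CPM (10.4 to 47.5) in stromal-like cells, and Itgbl1 had 1 UMI.

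The leukocyte chains were highest in monocyte/macrophage-like cells, where 5 of the 23 rows were called higher (Itgb2, Itgam, Itgax, Itga4 and Itga5), beside 7.52% of all genes. Itgb2, the common leukocyte beta chain, stood at 309.8 CPM (275 to 348), 47.6-fold (38.5 to 59.2) above the rest, and at 4.70 CPM (3.75 to 5.81) in epithelial-like cells. Itgam, the alpha chain of the complement receptor CD11b/CD18, stood at 158 CPM (133 to 185), 45.6-fold (33.9 to 61.8) above the rest. Itgax, the CD11c chain, stood at 53.3 CPM (39.4 to 70.4). These are the paired chains of complement receptors of phagocytes, and in epithelial-like cells they stood at 1.52%, 1.37% and 2.70% of the monocyte/macrophage-like level, beside 0.544 to 3.01% for the macrophage markers. Itga4, an alpha chain that binds Vcam1 and fibronectin, stood at 44.6 CPM (32.0 to 60.5). Itgal, the alpha chain of LFA-1, missed the filter with 46 UMIs in all, 27 of them in monocyte/macrophage-like cells (29.3 CPM, 19.3 to 42.7). Itgb7 missed it with 45, at 17.4 CPM (9.94 to 28.2) in the same cells. Itgad, the last Itgb2 partner, had no UMI, and Itgae had 6.

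Of the alpha chains that bind laminin with Itgb1 or Itgb4, Itga3 was 2.59-fold (1.92 to 3.58) higher in epithelial-like cells than in all other cells together, at 52.8 CPM (49.5 to 56.2), though endothelial-like cells held 67.9 CPM (38.8 to 110.3), an interval that includes the epithelial-like level. Itga6 was not called there: it stood at 112 CPM (107 to 117) in epithelial-like and 136 CPM (92.9 to 192) in endothelial-like cells, which overlap, and at 60.9 CPM (46.0 to 79.0) in monocyte/macrophage-like cells, 54.4% of the epithelial-like level and far above the 10.7% reached by the epithelial markers. Of the collagen-binding chains, Itga2 stood at 12.8 CPM (11.2 to 14.6) in epithelial-like cells, 7.08-fold (2.73 to 26.2) above the rest, whereas its neighbour Itga1 was 4.51-fold (2.01 to 8.85) higher in stromal-like cells, at 27.1 CPM (12.4 to 51.5). All 11 UMIs of Itga11, the fibroblast collagen receptor chain, fell in stromal-like cells (33.1 CPM, 16.5 to 59.3), and Itga10 had 12 UMIs in all. Itga9, a tenascin-binding chain, had 11 of its 26 UMIs in stromal-like cells, and Itga7, a laminin-binding chain of muscle, missed the filter with 47. The Itga1 level in stromal-like cells rests on 9 of its 129 UMIs, with 114 in epithelial-like cells (6.30 CPM), and its call was lost in 4 of 15 alternatives.

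Itga5, the fibronectin receptor chain, was lowest in the epithelium. It stood at 157 CPM (117 to 205) in stromal-like, 63.7 CPM (35.6 to 105) in endothelial-like, 48.5 CPM (29.2 to 75.8) in mesothelial-like, 43.5 CPM (31.1 to 59.2) in monocyte/macrophage-like and 13.8 CPM (12.2 to 15.6) in epithelial-like cells. Every other class lay above the epithelial-like interval, and it was the 1 chain called higher in all 4 of them. The stromal-like difference was 9.39-fold (6.87 to 12.6). Itgav, the widely used RGD-receptor chain, ran from 63.0 to 171.7 CPM over the 5 classes and was called in none. Stromal-like cells had 8 rows called higher in all (Itga1, Itga4, Itga5, Itgb5, Lama4, Lamb1, Lamb2 and Lamc1; 8.7% of all genes), endothelial-like cells 5 (Itga5, Itgb3, Lama4, Lamb1 and Lamc1; 7.93%) and mesothelial-like cells 2 (Itga5 and Lama4; 6.76%). Rows called lower numbered 10 in monocyte/macrophage-like cells (18.8% of all genes), 9 in stromal-like (14.3%), 9 in mesothelial-like (13.3%) and 5 in endothelial-like cells (11.1%), with Lamb3, Lama3 and Itga2 in all 4 lists and Itgb4, Itgb6 and Itga3 in the first 3. With 0 or 1 UMI, the intervals of Itga2 in mesothelial-like and endothelial-like, Itgb6 in stromal-like, Itga1 in mesothelial-like and Itgam in endothelial-like cells include no difference. Over the 5 classes and both directions 68 calls were made, and 68 were made again without the unnamed cluster 12 or without cluster 7, an epithelial-like cluster whose name rests on 3 markers. With each cell classed by its own markers in place of its cluster, Itga1 in stromal-like cells had a ratio of 1.35 and lost its call, and the epithelial-like ratio of Lama3 was 9.45. Without cluster 12 the monocyte/macrophage-like ratio of Itgam was 71.5.

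Genes that work with integrins were read from fixed lists. Of 14 talin, kindlin and adaptor genes that passed, Fermt1, the epithelial kindlin, was the 1 called higher in epithelial-like cells, near the 5.94% of all genes, and Tln1, Tln2, Fermt2 and Fermt3 were called lower (9.15%). Fermt1 stood there at 217 CPM (211 to 224) against 4.35 CPM (1.18 to 11.1) in monocyte/macrophage-like cells. Fermt3, the leukocyte kindlin, showed the opposite order, with 104 CPM (84.5 to 127) and 1.22 CPM (0.762 to 1.84). Together with Tln1 it was the adaptor called higher in monocyte/macrophage-like cells (7.52% of all genes), where 6 of the 14 were called lower (18.8%; Fermt1, Fermt2, Vcl, Parva, Ptk2 and Bcar1). Fermt2, the broadly expressed kindlin, was called higher in stromal-like, mesothelial-like and endothelial-like cells. Stromal-like cells had 5 adaptors called higher (Tln2, Fermt2, Ilk, Parva and Zyx, beside 8.7% of all genes) and 2 lower (14.3%). Mesothelial-like cells had 2 higher (Fermt2 and Zyx, beside 6.76%) and 2 lower (13.3%). Endothelial-like cells had 1 higher (7.93%) and 1 lower (11.1%). Of 7 other basement membrane genes that passed, 5 were called lower in epithelial-like cells (Col4a1, Col4a2, Nid1, Nid2 and Hspg2), where 9.15% of all genes were. Agrn, the heparan sulfate proteoglycan agrin, was called higher there (5.94%). The 5 lower genes were called higher in endothelial-like cells, where 7.93% of all genes were. Stromal-like cells also had 5 of the 7 called higher (Col4a1, Col4a2, Col4a5, Nid1 and Hspg2, beside 8.7% of all genes). Mesothelial-like cells had 4 (Col4a5, Nid1, Nid2 and Hspg2, beside 6.76%). Of the hemidesmosome genes Plec, Dst and Cd151, none was called in epithelial-like cells. Of 12 other ligands that passed, Spp1, Npnt and Cdh1 were called higher there (5.94% of all genes) and Fn1, Tnc, Icam2, Jam2 and Tgfb2 lower (9.15%); Cdh1 is one of the markers that named the class.

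Within the epithelium of the medium-size tumor, 8 clusters of at least 222 cells differed in their laminin and integrin chains. Cluster 1 was led by Gkn1 and Gkn2, cluster 2 by Tff3 and Ly6d, cluster 3 by the mitotic genes Ube2c and Birc5, cluster 4 by Cldn6 and Hmga2, cluster 5 by Yap1 and Birc2, cluster 6 by Krt17 and Cldn4, cluster 7 by Inhba and Bmp2, and cluster 8 by Dmbt1 and Lcn2. Each was compared with the other epithelial-like cells. Cluster 6 had 10 rows called higher, where 4.27% of all genes were, and Itga1 called lower, where 3.9% were; its median over the 23 rows was 0.85 on the log2 scale, beside 0.12 for all genes. Cluster 5 had none higher (0.741%) and 5 lower (4.3%), and cluster 7 none higher (4.05%) and 4 lower (5.79%). Clusters 1 (1.45% higher, 2.58% lower) and 4 (0.268% and 2.66%) had no row called. Cluster 2 had Lamb3 called higher (3.1%) and Lamb1 lower (4.39%), cluster 3 had none higher (2.54%) and Lama3 and Lamb3 lower (2.75%), and cluster 8 had none higher (5.56%) and Lamb1 lower (5.53%). The 25 calls over the 8 clusters were 12 without cluster 6, which alone held 11.

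Lamb3 ran from 12.9 CPM (9.004 to 17.8) in cluster 5 to 125 CPM (109 to 143) in cluster 6, with 117 CPM (101 to 135) in cluster 2, an interval that overlaps that of cluster 6. Lama3 ran from 3.93 CPM (1.96 to 7.03) in cluster 5 and 6.86 CPM (3.65 to 11.7) in cluster 7 to 78.4 CPM (65.8 to 92.8) in cluster 6. The highest level was 19.96 times the lowest for Lama3 and 9.73 times for Lamb3, and both had their peak in cluster 6. Cluster 5 was 8.79-fold (4.87 to 17.7) below the rest for Lama3 and 5.06-fold (3.63 to 7.26) for Lamb3; with cells thinned the Lama3 ratio was 0.260 in place of 0.114. In cluster 7 the chains parted: Lama3 was 4.73-fold (2.74 to 8.95) lower, with a ratio of 0.211 that was 0.0588 with cells thinned, while Lamb3 stood at 33.3 CPM (25.6 to 42.5), a ratio of 0.557 (0.425 to 0.719) to the rest that was not called. These chains of 1 trimer thus did not move in fixed proportion between clusters.

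Lamb1 also varied widely. It stood at 70.3 CPM (58.4 to 84.0) in cluster 6, 46.4 CPM (37.3 to 57.2) in cluster 7, 6.55 CPM (3.27 to 11.7) in cluster 2 and 1.52 CPM (0.184 to 5.49) in cluster 8, where it rested on 2 UMIs, so that its range of 46.3 times from lowest to highest cannot be ranked against that of Lama3. Cluster 8 was 20.3-fold (5.59 to 168) and cluster 2 4.73-fold (2.62 to 9.53) below the other epithelial-like cells. Its usual partner Lamc1 varied by 1.38 times over the same clusters and Lama5 by 2.30 times, so that of these 3 common chains Lamb1 varied by far the most. Lama4 and Itgb3, chains of vessels, were 9.43-fold (4.42 to 20.1) and 9.43-fold (5.38 to 16.5) higher in cluster 6 than in other epithelial-like cells, at 9.23 CPM (5.27 to 15.0) and 16.1 CPM (10.7 to 23.3), few molecules in each case (16 and 28 UMIs). The 11 endothelial markers summed to 61.1 CPM in that cluster, within the 28.9 to 102 CPM of the 8 clusters.

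**Figure D2:**
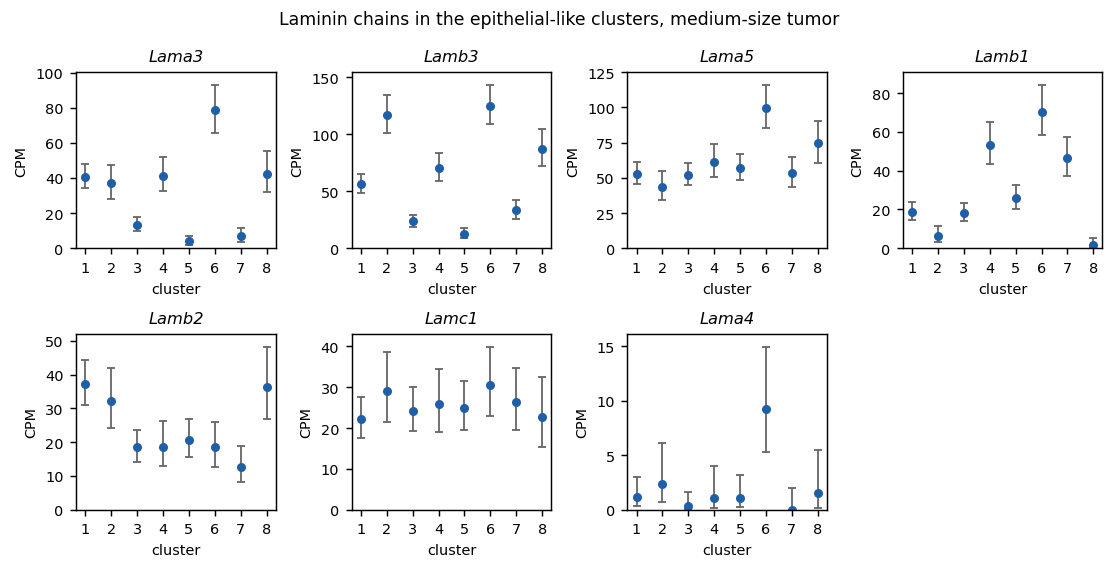
CPM of 7 laminin genes (panels) in the 8 epithelial-like clusters of the medium-size tumor; points are cluster sums and bars exact 95% counting intervals, with each vertical axis starting at 0. Lama3 and Lamb3 peak in cluster 6 and are low in cluster 5, Lamb1 is near 0 in cluster 8, and Lamc1 is nearly level.

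The laminin receptor chains had a like profile. Itgb4 stood at 183 CPM (164 to 205) in cluster 6, 3.62-fold (3.17 to 4.12) above the rest, and at 28.2 CPM (22.3 to 35.2) in cluster 5 and 29.6 CPM (22.3 to 38.4) in cluster 7. Itga3 had nearly the same profile, with 139 CPM (122 to 158) in cluster 6, 3.18-fold (2.74 to 3.69) above the rest, and 28.9 to 68.5 CPM in the other 7 clusters. Itga6 was flatter. It stood at 147 CPM (129.5 to 166), 147 CPM (129 to 167) and 145 CPM (125 to 167) in clusters 6, 2 and 8, which did not differ beyond their intervals, and was 2.10-fold (1.73 to 2.57) lower in cluster 7, at 56.5 CPM (46.3 to 68.2). The beta chain of the Itga6-Itgb4 receptor thus varied more between clusters, over 28.2 to 183 CPM, than the alpha chain, over 56.5 to 147 CPM or 2.60 times. Over 14 alternatives the ratio of Itga6 in cluster 7 ran from 0.435 to 0.513, and it was not called in 7 of them: the 4 other clusterings, the pseudocount of 20 CPM, the fold of 3 and without cluster 6. Without cluster 6, Itgb4 was no longer called in cluster 7 (0.553) or in cluster 5 (0.510). In cluster 5 its call was also lost with TMM scaling (0.467) and with DESeq2 size factors (0.473). A pseudocount of 20 CPM or a fold of 3 ended the Itgb4 calls in both clusters.

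Itgb1 was high in both cluster 6 (523 CPM, 489.5 to 558) and cluster 7 (510.4 CPM, 479 to 544), at ratios of 1.94 (1.81 to 2.09) and 1.905 (1.77 to 2.04) to the rest, just under the fold of the call. The next cluster was 4, with 346 CPM (319.8 to 374), and the others lay between 186 and 241 CPM. Itga5, the fibronectin partner of Itgb1, was highest in the same 2 clusters, at 35.2 CPM (26.9 to 45.2) and 27.4 CPM (20.5 to 36.0). Clusters 6 and 7 were therefore alike in Itgb1 and Itga5 and unlike in Itgb4, Itga3, Itga6 and Lama3. Itgav was 2.32-fold (2.04 to 2.62) higher in cluster 6, at 181 CPM (162 to 202), with clusters 4 and 7 next (117 and 106 CPM), and with TMM scaling (a ratio of 1.93) or DESeq2 size factors (1.95) it was not called. Itgb6 ran from 2.86 CPM (1.23 to 5.63) in cluster 5 to 24.2 CPM (17.5 to 32.7) in cluster 6, whereas Itgb5 was level (26.3 to 51.2 CPM) and highest in cluster 7. The call of Itgb6 in cluster 5, at a ratio of 0.1995 to the rest, was lost with 20 principal components (0.387), with thinned cells (0.390), with a pseudocount of 20 CPM and with a fold of 3. Itga1, the collagen receptor chain, was 11.98-fold (2.11 to 477) lower in cluster 6, on 1 UMI.

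**Figure D3:**
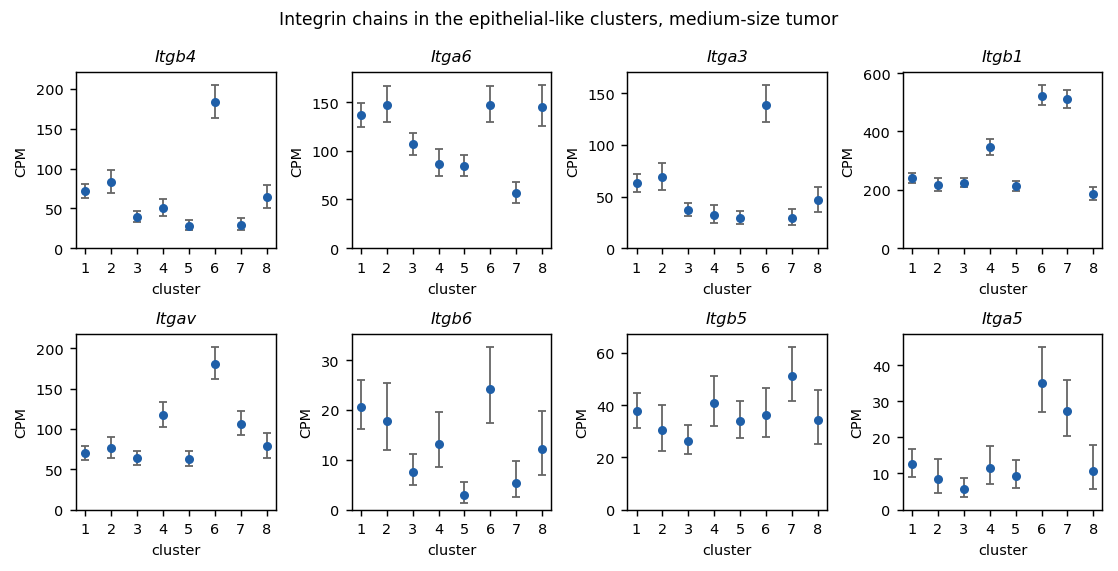
CPM of 8 integrin genes (panels) in the 8 epithelial-like clusters of the medium-size tumor; points are cluster sums and bars exact 95% counting intervals, with each vertical axis starting at 0. Itgb4 and Itga3 stand out in cluster 6, Itgb1 and Itga5 are high in clusters 6 and 7, and Itga6 is lowest in cluster 7.

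A list of 8 mesenchymal genes (Vim, Zeb1, Zeb2, Cdh2, Twist1, Snai2, Loxl2 and Wnt5a) summed to 1879 CPM in cluster 7, 1699 in cluster 5, 1179 in cluster 3, 1097 in cluster 4, 415 in cluster 1, 327 in cluster 6, 93.5 in cluster 2 and 50.1 in cluster 8. Over these 8 clusters, which share 1 library, Spearman's rho with that sum was -0.88 for Itga6, -0.81 for Itgb4 and for Lamb3, -0.79 for Itga3 and -0.76 for Lama3. Other chains had negative values too, with -0.67 for Itgb6, -0.64 for Lamb2, -0.62 for Itga2, -0.26 for Itgav and -0.19 for Lama5. Lamb1 (0.45), Itgb1 (0.31) and Itgb5 (0.26) leaned the other way, and Itga5 (0.05) and Lamc1 (0.02) were near 0. Between chains rho was 0.98 for Itga3 with Itgb4, 0.93 for Itga6 with Itgb4 and 0.83 for Lama3 with Lamb3. These are descriptions of 8 points of unequal depth.

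Chains of 1 trimer were seen together more often over all epithelial-like cells, but not beyond the counting intervals within the 2 clusters examined. With every cell thinned to 2500 UMIs, Lamb3 was seen in 32.1% (24.99 to 39.9) of the 162 epithelial-like cells with a Lama3 UMI and in 12.3% (10.97 to 13.8) of the 2167 without. Within cluster 6 alone the shares were 33.3% (18.6 to 50.97) and 25.1% (19.2 to 31.8), and within cluster 1 they were 21.3% (10.7 to 35.7) and 12.7% (9.80 to 15.99), with overlapping intervals in both clusters. As a reference, Lamb3 was seen in 13.7% of thinned epithelial-like and 2.10% of thinned monocyte/macrophage-like cells, and before thinning in 27.6% and 3.36% at median depths of 5987 and 3509.5 UMIs. For the receptor pair Itgb4 was seen in 16.9% (14.0 to 20.1) of cells with Itga6 and 12.7% (11.1 to 14.3) of those without, intervals that just overlap. In monocyte/macrophage-like cells Itgb2 was seen in 62.0% (49.7 to 73.2) of cells with Itgam and 45.5% (37.8 to 53.4) of those without, which overlap. Among these pairs Lama3 with Lamb3 was the 1 whose intervals stood apart over the epithelial-like cells, which pool clusters of different level.

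By Pearson's r of log2(CPM + 5) over all 14 clusters, among 4800 genes with at least 500 UMIs, the genes closest to Itgb4 were Itga3 (0.95), Prss22, Krtcap3, Epcam and Itpr3. Itgb6 was closest to Ngrn (0.96), Chmp2b, Igsf5 and Dsg2, and Itgb4 was the last of its 5 (0.92). Among the 5 closest to Itgb2 were Ccl9 (0.98), Lyz2, Cfp and Prtn3, genes of myeloid cells, and Itgb1 was closest to Zfp207 (0.94), Mff, Peak1, Rab22a and Setd5. An integrin chain was thus among the nearest genes for Itgb4 and Itgb6, and for Itgb1 no integrin or laminin chain was.

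The partner genes of cluster 6 and cluster 7 were alike in part. In cluster 6 Fermt1 stood at 511 CPM (478 to 546) against 185 CPM (166 to 206) in cluster 7, and Agrn at 170.1 CPM (151 to 191) against 22.7 CPM (16.4 to 30.6). Fermt1, Fermt2 and Zyx of 14 adaptors, Hspg2 and Agrn of 7 basement membrane genes, and Bcam and Sdc1 of 4 other laminin receptors were called higher in cluster 6, where 4.27% of all genes were. Bcam, which binds Lama5, and Sdc1, a syndecan, are surface proteins of epithelia. In cluster 7 Fermt2, Parvb and Lims1 were called higher, as was Dst (4.05% of all genes), and Agrn was called lower (5.79%). Parvb was called lower in cluster 6 (3.9%), so that Fermt2 was the 1 adaptor called higher in both. Of the 12 other ligands 5 were called higher in cluster 6 (Fn1, Tnc, Vcam1, Jam2 and Tgfb3; 4.27% of all genes) and 5 in cluster 7 (Fn1, Spp1, Jam2, Tgfb1 and Tgfb2; 4.05%), with Fn1 and Jam2 in both, and Icam1, Vcam1 and Cdh1 were called lower in cluster 7 (5.79%). Fn1 and Tnc are among the genes that lead cluster 6, so their level there follows from how the cells were grouped.

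The large-size tumor, with far fewer UMIs, allowed 11 rows to be compared. Against all other cells 4 were called higher in its epithelial-like cells (among them Lama3, Lama5 and Itga6), where 20.5% of all 4829 genes were, and 3 lower (Lamc1, Itgam and Itgb2), where 8.47% were. Itgb2 (261 CPM, 194 to 343) and Itgam (317 CPM, 243 to 406) were the 2 called higher in monocyte/macrophage-like cells (8.53% of all genes), and 6 were called lower there (28.0%), among them Itga6 on 11 UMIs, Lama3 and Lama5 on 1 each, and Lamc1 (a ratio of 0.354, 0.0419 to 1.34) and Lamb1 (0.190, 0.00473 to 1.10), whose intervals include 1. Lamc1 was the 1 called higher in stromal-like cells (8.51%), at 176 CPM (91.0 to 308) against 23.0 CPM (16.8 to 30.7) in epithelial-like cells, and 6 were called lower (26.7%). Of these Itga6, at a ratio of 0.328 (0.0890 to 0.848) on 4 UMIs, was the 1 whose interval excluded 1; the others, with 0 or 1 UMI against up to 44.0 CPM that a count of 0 allows, could not be told from the level of the other cells. Lama3 was thus higher in epithelial-like cells and Itgb2 and Itgam in monocyte/macrophage-like cells in both tumors.

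Of its 6 epithelial-like clusters of at least 138 cells, cluster 1 was led by Ggct and Ramp1. Cluster 3, with a median of 808.5 UMIs per cell, was led by genes that include Onecut2, Xist, Malat1 and Atp1b1. The others were led by the enterocyte genes Fabp1 and Fabp2 (cluster 4), the mitotic genes Ube2c and Birc5 (cluster 5), Muc2 and Tff3 (cluster 6) and Gkn2 and Tff1 (cluster 7). The epithelial-like name of cluster 1 rests on 3 of 11 markers, where the other clusters compared had 7 to 11. Cluster 1 had Lama5 and Lamb1 called higher and Lama3 among those called lower, beside 16.9% of all genes in either direction. Its mesenchymal list summed to 1996 CPM, the most of the 6. Lamb1 stood there at 66.3 CPM (44.7 to 94.7), 4.54-fold (2.53 to 8.27) above the others. Lama3 was 6.80-fold (2.23 to 33.8) lower, at 6.63 CPM (1.37 to 19.4).

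The highest Lama3 lay in the clusters led by gut genes, at 107 CPM (66.0 to 163) in cluster 4 and 73.2 CPM (39.0 to 125) in cluster 6, 3.76-fold (2.145 to 6.38) and 2.25-fold (1.13 to 4.15) above the others. Neither had a UMI of Lama5 or Lamb1, which allowed up to 15.2 and 16.9 CPM, and 5 rows were called in each (Lama3 higher in both; Itgb1, Lama5, Lamb1 and Lamc1 lower in cluster 4, Itgam, Itgav, Lama5 and Lamb1 lower in cluster 6). All genes were called more often in these clusters, 49.2% in cluster 4 and 23.6% in cluster 6, than in the others, 11.2 to 16.9%. The 5 calls in cluster 4, among 11 rows, thus stood near the background of all genes. Itgam in cluster 6 had no UMI against 5.61 CPM in the other clusters, under the 16.9 CPM that a count of 0 allowed, and a difference was not detectable. Lama5 stood at 92.9 CPM (66.9 to 126) in cluster 1, 80.5 CPM (51.1 to 121) in cluster 7, 68.4 CPM (38.3 to 113) in cluster 3 and 24.7 CPM (13.8 to 40.7) in cluster 5, where it was the 1 row called (13.5%). Cluster 3 had Itgam called (12.3%), on 3 UMIs and with an interval that includes no difference, and cluster 7 had Lamb1 and Lama3 called lower (11.2%). Itga6, the laminin receptor chain, was called in none of the 6 and ran from 148 to 284 CPM. Of 18 calls over the 6 clusters, 8 were made when clusters 4 and 6 were left out.

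**Figure D4:**
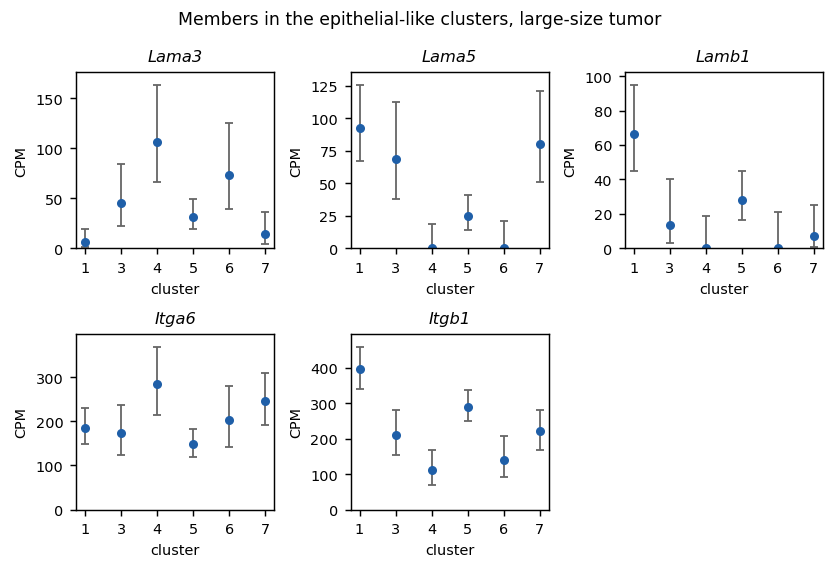
CPM of 5 genes (panels) in the 6 epithelial-like clusters of the large-size tumor with at least 138 cells; points are cluster sums and bars exact 95% counting intervals, with each vertical axis starting at 0. Lama3 is highest in clusters 4 and 6, where Lama5 and Lamb1 have no UMI, and Lamb1 is highest in cluster 1, where Lama3 is lowest.

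Between the epithelial-like cells of the 2 tumors, 6 of the 19 rows with at least 50 UMIs in both groups summed were called lower in the large-size tumor (among them Itga3, Itga5, Itgb4, Lamb2 and Lamb3), where 10.3% of 10881 genes were, and none was called higher, where 4.0% were. The median of the 19 was -0.31 on the log2 scale, beside -0.15 for all genes. Itga3 stood at 52.8 CPM (49.5 to 56.2) in the medium-size and 5.10 CPM (2.45 to 9.39) in the large-size tumor, 10.3-fold (5.599 to 21.6) lower. The 10 UMIs found compare with 103.4 that the medium level would have given at the depth of the large-size tumor. Itga5 had no UMI in any cell of the large-size tumor, where the medium epithelial-like level would have given 27.07 in epithelial-like cells, a bound of at least 9.02-fold lower if the 0 is one of expression. Both tables list the same 27775 rows, and whether they were counted with the same gene annotation was not tested. Of 5680 genes with at least as many UMIs as Itga5 (385) in the medium-size tumor, 8 (0.141%) had none in the large-size tumor. Itga5, which in the medium-size tumor was highest in stromal-like cells, had no UMI in the stromal-like or monocyte/macrophage-like cells of the large-size tumor either.

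Itgb4 was 3.27-fold (2.37 to 4.64) lower, with 19.4 CPM (13.7 to 26.6) in the large-size tumor, and Lamb3 4.29-fold (2.91 to 6.60) lower with 13.3 CPM (8.67 to 19.4). Lama3 was not: its level was 36.2 CPM (28.3 to 45.7) against 29.8 CPM (27.3 to 32.4), a ratio of 1.22 (0.936 to 1.56). With clusters 4 and 6 of the large-size tumor left out, whose leading genes include gut genes, the Lama3 ratio was 0.784 (0.546 to 1.09) and its direction turned. With cells drawn to 2500 UMIs in the medium-size and 500 in the large-size tumor, the ratio was 2.07 for Lama3 and 0.376 for Lamb3. Itga6 leaned higher in the large-size tumor, at a ratio of 1.70 (1.52 to 1.904), as did Itgav (1.53, 1.34 to 1.75), both short of the call. Itgb1 (0.896, 0.817 to 0.981), Lama5 (0.815, 0.654 to 1.01), Lamb1 (0.925, 0.682 to 1.23) and Lamc1 (0.907, 0.653 to 1.23) lay within 1.5 times of equal. Of the 2 alpha chains that bind laminin-332, 1 was thus far lower and the other was not, and of the laminin-332 chains Lamb3 was lower while Lama3 was not called. With cells of both tumors drawn to 500 UMIs, Itga3 was seen in 2.28% (1.71 to 2.97) of medium-size and 0.164% (0.0199 to 0.591) of large-size epithelial-like cells, and Lamb3 in 2.62% (2.01 to 3.35) and 0.656% (0.284 to 1.29). With clusters 4 and 6 left out the ratios of Itga3, Lamb3 and Itgb4 were 0.0956, 0.200 and 0.259, and with both tumors drawn to 500 UMIs a cell they were 0.0764, 0.236 and 0.398, so these 3 stayed called. The call of Itga5 was lost in the draw to 500 UMIs and with a pseudocount of 20 CPM.

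In monocyte/macrophage-like cells 1 of 8 rows that passed was called (18.9% of 2673 genes in either direction). Itgax was 2.60-fold (0.955 to 9.93) lower in the large-size tumor, an interval that includes 1. Itgam had a ratio of 2.01 (1.47 to 2.73) and Itgb2 of 0.842 (0.612 to 1.14), and neither was called on the CPM + 5 scale.

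**Figure D5:**
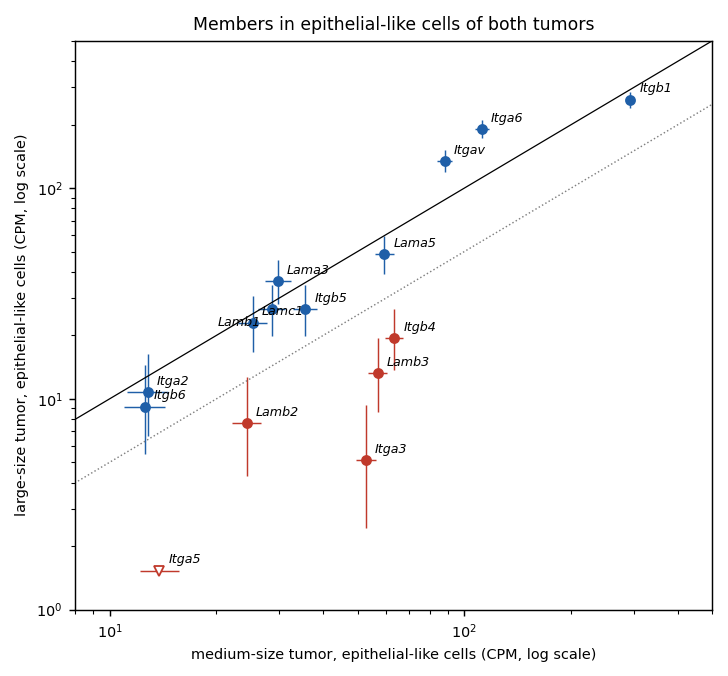
Level in epithelial-like cells of the medium-size (horizontal) and large-size (vertical) tumor, both in CPM on log axes, for 15 members with at least 200 UMIs in the medium-size group; bars are exact 95% counting intervals, the solid line is equality and the dotted line a 2-fold lower level. Itga3, Lamb3, Itgb4 and Lamb2 (red) lie below the dotted line, and the open triangle marks Itga5 at the limit that a count of 0 allows.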

How the data were processed

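Single cells of 2 untreated KPC tumors were captured with 10x Chromium 3′ chemistry (v2). Per the labels, reads were processed with Cell Ranger on mm10, and the authors deposited raw counts of UMIs per gene and cell barcode, 1 table a tumor with its 4 technical replicates summed; the Cell Ranger version and the annotation are not given in the sources used here. The 2 tables hold 2812 and 1533 cells.

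Counts were normalized to 10000 per cell and clustered in Seurat 5.3.0 (R 4.3.3; 2000 variable genes without the 40 rows, 10 principal components, resolution 0.8). A class name needed at least 3 markers seen in 10% of a cluster's cells at 25% of the highest cluster's level; a cluster where another class reached 50% of its markers stayed unnamed, a limit set after the marker values were seen. UMIs were summed per class or cluster (Python 3.11.15, scipy 1.17.1) and given as CPM with exact Poisson intervals. Ratios carry exact conditional binomial intervals, a count of 0 is bounded at 3 counts, and a call needs 50 UMIs and 2-fold on CPM + 5. Classes were compared from 30 cells and clusters from 100. Intervals cover counting error only, and each depth sets the width. With 1 tumor a group no test was run. Scrublet (scanpy 1.11.5) called 0 and 9 doublets (0.587% of the large-size tumor), which were kept.

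Every row found by the name rule is named or counted; some items are not reported here. Members and gene lists were chosen with earlier results of these data known. Alternatives were other clusterings, pseudocounts, filters and folds, TMM (edgeR 4.0.16) and DESeq2 1.42.0 size factors on the summed counts, thinned cells and clusters left out. The scripts were tested on simulated data.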

Additional observations from a re-analysis of the deposited data

Results flagged for a closer look

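Itgb5, an integrin beta chain, was called in opposite directions in the stromal-like cells of the 2 tumors, with no test of the difference. In the medium-size tumor it stood at 87.4 CPM (58.5 to 125) in stromal-like cells against 36.6 CPM in all other cells, and in the large-size tumor at 0 of 68147 UMIs against 27.2 CPM, so that the log2 differences from the other cells, on the CPM + 5 scale, differed by -3.84 (large minus medium). A count of 0 there allowed up to 44.0 CPM, above the level of the other cells, so a lower level was not detectable at this depth. No other of the 40 rows had called class differences of opposite sign in the 2 tumors.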

How the results depend on the processing

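No paired analysis was possible because the 4 technical replicates of each tumor are summed in 1 table, so no replicate could be left out either. The 68 calls over the cell classes of the medium-size tumor became 38 at resolution 0.4, which gave no stromal-like or mesothelial-like class, 38 with a pseudocount of 20 CPM and 41 with a fold of 3. The 25 calls over its carcinoma clusters became 11 with that pseudocount, 8 with a fold of 3 and 12 without cluster 6. The 22 calls over the classes of the large-size tumor became 49 with no filter beyond 1 UMI and 3 with a filter of 200 UMIs, and the 18 over its clusters became 2 with that filter, 9 with a fold of 3 and 8 without clusters 4 and 6. The 6 calls between the tumors became 3 with a fold of 3. Leaving out clusters, apart from clusters led by 3 or more enterocyte or goblet genes, of which there were none, was chosen after seeing the data. Of 625 recomputed values of 41 named ratios, 580 lay within the interval of the reported value, 17 differed from it by over 1.5 times, and none that was called changed direction. TMM scaling moved the median of all genes by 0.29 (log2) in the monocyte/macrophage-like comparison, by 0.21 in cluster 5, -0.26 in cluster 6 and -0.36 in the stromal-like comparison of the large-size tumor, and by at most 0.17 in size elsewhere. With cells thinned or classed one by one the epithelial-like ratios were higher than reported, at most 9.45 for Lama3, 6.04 for Itgb4, 4.82 for Itga3 and 11.9 for Itgb6; the cause was not tested. Thinned cells gave 0.260 for Lama3 and 0.390 for Itgb6 in cluster 5 and 0.0588 for Lama3 in cluster 7, and 0.376 for Lamb3 and 2.07 for Lama3 between tumors. Depth limits the large-size tumor, where 11 of 40 rows passed the filter.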

Other observations

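The 66 cells of the unnamed cluster 12 of the medium-size tumor carried chains of the epithelial and the leukocyte groups side by side. Lamb3 stood at 48.6 CPM (27.8 to 78.9), near its epithelial-like level of 56.9 CPM, and Itgb4 at 36.5 CPM (18.8 to 63.7). Itgb2 stood at 112 CPM (79.2 to 155) and Itgam at 76.0 CPM (49.2 to 112), between the epithelial-like and the monocyte/macrophage-like levels. The cells had a median of 4234 UMIs, against 5987 in epithelial-like and 3509.5 in monocyte/macrophage-like cells. Scrublet called no doublet anywhere in this tumor, and whether these cells are doublets was not tested.

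The 11 endothelial-like cells of the large-size tumor were too few for a comparison. They held 3 UMIs of Itga6, 2 of Lamc1 and none of Itgb2, where a count of 0 allowed up to 188 CPM.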
